A study of Mus musculus with 12 samples.

Results

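The genes described here code for the subunits of cohesin, the ring-shaped complex that holds sister chromatids together. They were chosen by symbol, as the 3 subunits known for meiosis (Rec8, Smc1b and Stag3), the 4 mitotic subunits that they replace (Rad21, Smc1a, Stag1 and Stag2) and Smc3, which both forms of the ring share. All 8 were found, of 37675 genes listed in the files, and all 8 passed the filter on low counts. The animals were mice of the inbred strain C57BL/6NHsd with no treatment named, and a whole testis was taken from 2 of them at each of postnatal day (PND) 7, 14, 17, 21 and 28, during the first wave of spermatogenesis. By the study's account the testis holds somatic cells and spermatogonia at PND 7, and the first early spermatocytes appear by PND 14, late spermatocytes by PND 17, round spermatids by PND 21 and elongating ones by PND 28. Ribosome-depleted RNA was sequenced, and each gene was given the number of unique reads that lay on its exons.

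Cohesin is built from a pair of SMC proteins, a kleisin that closes the ring and a STAG protein bound to the kleisin. In mitotic cells these are Smc1a with Smc3, Rad21, and Stag1 or Stag2. Meiocytes use Smc1b, the kleisins Rec8 and Rad21l, and Stag3 as well, and these subunits lie along the axes on which homologous chromosomes pair. Rec8 is known as the kleisin that separase cuts in 2 steps, first along the chromosome arms and later at the centromeres. Stag3 is known to be needed for fertility in both sexes, and the loss of Smc1b or Rec8 is known to arrest male meiosis.

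In whole testis the 3 meiotic subunits were called higher at PND 28 than at PND 7, beside 32.2% of all genes tested. Of the 4 mitotic subunits 2, Smc1a and Rad21, were called lower, beside 23.4% of all genes tested. Over this span Rec8, Smc1b and Stag3 rose by 4.19-fold, 4.15-fold and 3.75-fold, and Smc1a fell by 2.21 on the log2 scale. Rad21 and Smc3 fell close to the 2-fold threshold and lost their calls under another scaling of the libraries, and Stag1 and Stag2 were not called. The 3 meiotic subunits did not follow a single course. Smc1b was the only one called higher between PND 7 and PND 14, where Stag3 was 1.85-fold higher, short of the 2-fold threshold. Stag3 was highest at PND 21 and 28, and Rec8 was highest at PND 28.

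Promoters are printed for Smc1b and Stag3, which stood side by side at the top of the levels from PND 14 on, for Rec8, which did not follow them, and for Smc1a, the mitotic paralog that fell most. The RefSeq promoter table (GRCm38.p6) holds windows from 250 bases before to 50 bases after the start of a gene and matched 6 of the 8 subunits, all but Rad21 and Stag2. The sequences run 5′ to 3′ on the strand of the gene, and capitals mark any match to 5 short motifs searched on both strands. The motifs were the E-box CACGTG, the E2F motif TTCCCGC, the CRE TGACGTCA, the MYB motif CNGTTG and the STRA8 motif CNCCTCAG.
Smc1b, chr15:85131908-85132207, minus strand: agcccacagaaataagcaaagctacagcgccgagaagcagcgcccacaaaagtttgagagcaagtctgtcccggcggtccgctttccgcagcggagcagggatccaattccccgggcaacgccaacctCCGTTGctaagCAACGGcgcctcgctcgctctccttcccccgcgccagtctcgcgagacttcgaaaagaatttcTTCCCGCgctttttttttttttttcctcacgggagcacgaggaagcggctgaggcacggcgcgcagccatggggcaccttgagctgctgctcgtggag
Stag3, chr5:138280259-138280558, plus strand: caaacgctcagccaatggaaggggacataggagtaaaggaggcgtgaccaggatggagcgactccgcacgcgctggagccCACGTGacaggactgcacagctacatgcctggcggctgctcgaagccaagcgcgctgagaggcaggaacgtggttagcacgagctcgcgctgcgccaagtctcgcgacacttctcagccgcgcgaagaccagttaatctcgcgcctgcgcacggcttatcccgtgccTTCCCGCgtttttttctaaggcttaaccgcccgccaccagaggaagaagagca
Rec8, chr14:55617916-55618215, plus strand: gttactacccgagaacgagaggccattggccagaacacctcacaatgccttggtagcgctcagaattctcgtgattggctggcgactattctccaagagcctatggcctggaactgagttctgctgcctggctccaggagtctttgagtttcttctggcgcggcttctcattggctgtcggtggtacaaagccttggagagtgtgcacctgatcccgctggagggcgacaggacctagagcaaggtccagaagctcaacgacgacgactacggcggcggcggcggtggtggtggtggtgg
Smc1a, chrX:152016178-152016477, plus strand: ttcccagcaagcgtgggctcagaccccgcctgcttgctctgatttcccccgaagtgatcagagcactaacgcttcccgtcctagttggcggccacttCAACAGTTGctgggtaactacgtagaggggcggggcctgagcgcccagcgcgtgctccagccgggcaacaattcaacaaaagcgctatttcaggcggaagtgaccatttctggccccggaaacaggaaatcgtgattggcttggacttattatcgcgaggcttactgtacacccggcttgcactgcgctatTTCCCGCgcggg

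The letters TTCCCGC stood in the windows of Smc1b, Stag3, Stag1 and Smc1a, and in 4.6% of all 32851 promoters. The match began 48 bases before the start in Smc1b, 3 bases before it in Stag3, 16 bases before it in Stag1, and at base 39 after it in Smc1a. Proteins of the E2F family are known to bind this motif, and some of them to repress germ cell genes in somatic cells. An E-box was found in Stag3 only, 170 bases before the start, beside 7.15% of all promoters. The MYB letters were found in Smc1b and Smc1a, each with a pair of matches (the pair in Smc1a overlaps), beside 35.0% of all promoters. No window of the 6 held the CRE (1.79% of all promoters) or the STRA8 letters (7.94%), and the windows of Rec8 and Smc3 held none of the 5 motifs. A match is a description of letters, and no protein was measured on these windows.

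The protein-coding transcripts of the subunits could be told apart by exact stretches of 50 bases. Matches with mismatches, pseudogenes and non-coding copies were not searched. None of the 50-base stretches of the transcripts of the 8 subunits (GENCODE M1 protein-coding transcripts, mm9) occurred in such a transcript of another gene, and no exon of theirs overlapped an exon of another gene. The longest run that the coding sequences of Smc1b and Smc1a share has 23 bases and starts at base 874 of both, and it is shown because these paralogs carry the largest difference below.
Smc1b and Smc1a: aatcagaagaggcctcagtacat
For Rec8 and Rad21 the longest shared run had 12 bases, and for Stag3 against Stag1 and against Stag2 it had 14 bases.

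In mm9, Rec8 (ENSMUSG00000002324) lies at chr14:56236874-56244232 on the plus strand with 2748 bases of exon. Smc1b (ENSMUSG00000022432) lies at chr15:84895121-84962387 on the minus strand with 4038 bases of exon, and Stag3 (ENSMUSG00000036928) at chr5:138721468-138753621 on the plus strand with 5733. Rad21 (ENSMUSG00000022314) lies at chr15:51794151-51823306 on the minus strand with 3604 bases of exon. Smc3 (ENSMUSG00000024974) lies at chr19:53674886-53720323 and Stag1 (ENSMUSG00000037286) at chr9:100498217-100858964, both on the plus strand. The other two mitotic genes are on the X chromosome, Smc1a (ENSMUSG00000041133) at chrX:148450971-148497237 and Stag2 (ENSMUSG00000025862) at chrX:39502494-39630362.

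The total count of a mouse was between 3994026 and 13559548, with the extremes in the PND 17 mice. Mitochondrial genes took 15.1% to 37.3% of the counts, with the lowest shares at PND 28 and the highest at PND 7. Mouse 1 at PND 14 stood apart in its cell type markers. The 6 spermatid markers summed to 188 CPM (counts scaled to library size) in it, 13.3 in mouse 2 of the same age and 12.8 in both PND 17 mice, and the 6 measured Sertoli markers summed to 1413 CPM against 654 in mouse 2. Its 7 spermatocyte markers summed to 1570 CPM against 2614 in mouse 2. Clu alone made up 1153 and 441 CPM of the Sertoli sums, while Wt1 was at 107 and 106 CPM and Gata4 at 58.0 and 61.9 CPM. The step from PND 7 to PND 14 is therefore also given without this mouse for the subunits and for the list genes named there.

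The marker sums differed between PND 7 and PND 28 but did not follow age in every mouse. The spermatid sum of mouse 1 at PND 14, 188 CPM, lay above those of the PND 21 mice, 121 and 111 CPM. Spermatocyte markers summed to 207 to 212 CPM at PND 7 and to 6922 to 7490 CPM at PND 28, of which Ldhc alone made up 6132 and 5529 CPM, and spermatid markers to 2.40 to 6.31 CPM and to 5206 to 6159 CPM. The spermatocyte marker Sycp1 was at 111 and 105 CPM at PND 7, 443 and 672 CPM at PND 14, and 435 and 410 CPM at PND 28, and Dmc1 was at 66.1 and 76.4 CPM at PND 14 and 34.8 and 38.8 CPM at PND 28. At PND 7, 4 of the 6 spermatid markers were at 0 counts in mouse 1 and 5 in mouse 2. Over the same span the Sertoli markers went from 1499 to 1739 CPM down to 317 to 463 CPM and the 6 spermatogonia markers from 453 to 525 CPM down to 149 to 183 CPM. In bulk tissue, fewer cells of a type and less RNA per cell cannot be told apart, and the part of these shifts in the changes of the cohesin genes was not tested.

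**Figure D1:**
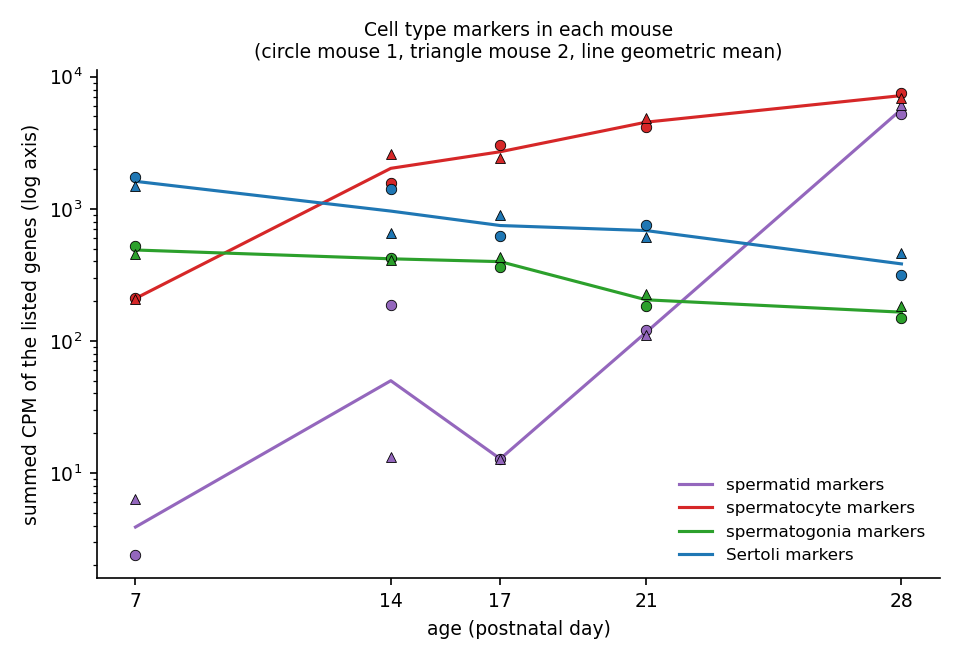
Summed CPM (counts scaled to library size, log axis) of 6 spermatid, 7 spermatocyte, 6 spermatogonia and 6 Sertoli markers against age in postnatal days, with a circle for mouse 1, a triangle for mouse 2 and a line through the geometric means. Mouse 1 at PND 14 lies at 188 CPM for the spermatid markers, where mouse 2 and both PND 17 mice lie at 12.8 to 13.3 CPM and the PND 21 mice at 121 and 111 CPM.

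Levels below are the deposited RPKM (reads scaled to exon length and to library size), and each pair of values gives mouse 1 and then mouse 2. The exon length counts all annotated exons of a gene, 10266 bases for Stag1, 8273 for Stag2 and 5733 for Stag3. Their longest protein-coding transcripts have 6186, 6171 and 4211 bases. For Rad21 (3604) and Smc1b (4038) these lengths are equal. The order of different genes and their shares depend on this length and were not recomputed with another. Differentially expressed (DE) genes had an edgeR adjusted p under 0.05 over all 16860 genes tested and at least a 2-fold change. With 2 mice against 2, no exact test of a single gene could reach 0.05, so the calls rest on the spread that edgeR shares across genes and ages. Libraries are separate mice, and each PND 7 mouse was sequenced under 2 barcodes that were merged.

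Smc1b, the meiotic partner of Smc3, had the largest rise of the meiotic subunits between PND 7 and PND 14, and its difference from Stag3 was not tested. It was at 27.4 and 23.5 RPKM at PND 7, 67.0 and 83.1 at PND 14, 80.9 and 82.0 at PND 17, 81.1 and 62.01 at PND 21, and 77.8 and 91.5 at PND 28. Both PND 7 mice were below all later mice, and from PND 14 on the ages overlapped in RPKM. In CPM, the scale of the fold changes, the PND 28 mice (373 and 432) lay above the PND 21 mice (310 and 269). Between PND 7 and PND 14 Smc1b rose by 1.46 ± 0.23 on the log2 scale (SE; 2.76-fold, edgeR adjusted p = 0.00137), and it was the only one of the 8 subunits called DE in this comparison, in which 18.9% of all genes tested were called, 13.5% as higher and 5.43% as lower. Without mouse 1 of PND 14 the difference was 1.63 (edgeR adjusted p = 0.00110). None of the later steps was called, with log2 differences of 0.19 at PND 17, -0.08 at PND 21 and 0.47 at PND 28.

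Stag3, the meiotic STAG protein, was higher after PND 7 and again after PND 17, and neither difference reached 2-fold. It was at 27.3 and 32.5 RPKM at PND 7, 60.0 and 58.5 at PND 14, 65.6 and 58.4 at PND 17, 110 and 76.4 at PND 21, and 91.9 and 86.5 at PND 28. The mice of PND 7 did not overlap with those of PND 14, and the mice of PND 17 did not overlap with those of PND 21. The log2 difference was 0.89 ± 0.22 (SE) between PND 7 and PND 14 (edgeR adjusted p = 0.0160, beside 22.3% of all genes tested with an adjusted p under 0.05) and 0.70 ± 0.22 between PND 17 and PND 21 (edgeR adjusted p = 0.0626). When each mouse of PND 7 or 14 was left out, the first of these ranged from 0.81 to 1.02 and its edgeR adjusted p from 0.0375 to 0.0624. It was over 0.05 without mouse 1 of PND 7 or mouse 2 of PND 14, a DE call without mouse 2 of PND 7 (edgeR adjusted p = 0.0479), and 0.90 without mouse 1 of PND 14 (edgeR adjusted p = 0.0375).

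Rec8, the meiotic kleisin, was the lowest of the meiotic subunits at every age and stood out only at PND 28. It was at 7.85 and 3.76 RPKM at PND 7, 11.3 and 7.02 at PND 14, 6.23 and 3.74 at PND 17, 11.4 and 7.51 at PND 21, and 21.5 and 17.8 at PND 28. The mice of PND 7 and PND 14 overlapped, both PND 17 mice were below those of PND 14 and PND 21, and both PND 28 mice were above all others. Its log2 difference was 0.53 ± 0.39 (SE) between PND 7 and PND 14, -0.76 ± 0.39 between PND 14 and PND 17, and 0.99 ± 0.40 between PND 17 and PND 21 (edgeR adjusted p = 0.131). With mouse number as a block the last of these was 1.05 and called DE (edgeR adjusted p = 0.0454). Without mouse 1 of PND 14 the first of these was 0.18 and the second -0.44. Between PND 21 and PND 28 the difference was 1.30 ± 0.39 (2.46-fold) and missed the threshold (edgeR adjusted p = 0.0669, beside 7.66% of all genes called, 7.37% as higher, and 8.27% with an adjusted p under 0.05). It was called in 4 of the alternatives that keep all 10 mice, with an edgeR adjusted p of 0.00406 without the filter on low counts, 0.0177 in a fit of those 4 mice alone, and 0.0194 with mouse number as a block, and with a DESeq2 adjusted p of 0.0245. When each of the 4 mice compared was left out it was not called, with an edgeR adjusted p from 0.157 to 0.351. Rec8 rests on the fewest reads of the meiotic subunits, between 40 in mouse 2 of PND 17 and 514 in mouse 1 of PND 28. In that PND 17 library none of the 25 exons of Rec8 had over 10 reads, and in the PND 28 mice 21 and 14 of them had.

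Rad21, the mitotic kleisin, was the most abundant subunit at PND 7 and was lower afterwards. It was at 54.9 and 65.2 RPKM at PND 7, 51.7 and 40.3 at PND 14, 35.6 and 47.1 at PND 17, 32.7 and 22.5 at PND 21, and 19.7 and 27.7 at PND 28. Neighbouring ages overlapped from PND 14 to PND 17 and from PND 21 to PND 28, and no step was called. The step from PND 7 to PND 14 was -0.49 on the log2 scale, and -0.65 without mouse 1 of PND 14 (edgeR adjusted p = 0.182 for each). The third kleisin, Rad21l, which is also germ cell specific, was at 8.24 and 9.97 RPKM at PND 7, 16.7 and 13.6 at PND 14, 16.3 and 18.2 at PND 17, 7.19 and 6.60 at PND 21, and 3.90 and 5.98 at PND 28. Rad21l thus stood highest at PND 14 and 17, where Rec8 was below its PND 28 level, and it fell between PND 17 and PND 21 by 1.20 ± 0.30 on the log2 scale (SE; edgeR adjusted p = 0.0284). At PND 21 Rad21l rests on 47 and 67 reads, with over 10 reads on 1 and 2 of its 13 exons.

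Smc1a, the mitotic SMC1, had a lower mean at each later age. It was at 11.98 and 13.3 RPKM at PND 7, 7.95 and 8.48 at PND 14, 6.27 and 7.48 at PND 17, 4.51 and 3.69 at PND 21, and 2.39 and 1.95 at PND 28. In RPKM the mice of each age lay below all mice of the earlier ages. In CPM the mice of PND 14 (38.6 and 44.7) and PND 17 (33.1 and 40.7) overlapped, and that step was -0.18 on the log2 scale and was not called. The first step was -0.72 ± 0.23 on the log2 scale (SE; edgeR adjusted p = 0.0441), short of 2-fold, and it did not pass the test when any 1 of the 4 mice compared was left out (-0.84 to -0.65, edgeR adjusted p from 0.0695 to 0.156, the latter without mouse 1 of PND 14). The steps from PND 17 to PND 21 and from PND 21 to PND 28 were -0.63 and -0.68, and neither passed the test.

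Smc3, the partner of both SMC1 proteins, was at 24.5 and 26.5 RPKM at PND 7, 19.6 and 13.2 at PND 14, 11.5 and 16.2 at PND 17, 13.2 and 8.30 at PND 21, and 8.88 and 11.4 at PND 28. It was highest in the PND 7 mice, and all neighbouring later ages overlapped. The step from PND 7 to PND 14 was -0.74 (edgeR adjusted p = 0.0693), and -1.02 without mouse 1 of PND 14 (edgeR adjusted p = 0.0535). Its course was close to that of Rad21. The ratio of Rad21 to Smc3 in reads per kilobase lay between 2.22 and 3.08 in all 10 mice, while the ratio of Smc1a to Smc3 was 0.342 to 0.644 from PND 7 to PND 21 and 0.270 and 0.173 at PND 28.

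Stag1 and Stag2, the mitotic STAG proteins, had the same deposited RPKM at PND 7 and did not overlap in it at any later age. Stag1 was at 19.1 and 17.8 RPKM at PND 7, 23.0 and 24.8 at PND 14, 25.0 and 28.7 at PND 17, 20.3 and 19.4 at PND 21, and 12.6 and 14.7 at PND 28. Stag2 was at 19.1 and 17.8 RPKM at PND 7, 16.7 and 15.3 at PND 14, 14.1 and 16.5 at PND 17, 7.81 and 8.04 at PND 21, and 8.54 and 10.6 at PND 28. Stag1 was thus highest at PND 14 and 17 and Stag2 at PND 7, though Stag1 was the only subunit without a significant difference over the 5 ages (edgeR adjusted p = 0.111). From PND 7 to PND 14 Stag1 differed by 0.27 and Stag2 by -0.30 on the log2 scale, and by 0.34 and -0.34 without mouse 1 of PND 14, none of which passed the test. Stag2 was lower at PND 21 than at PND 17 by -0.83 ± 0.21 on the log2 scale (SE; edgeR adjusted p = 0.0305), short of 2-fold, and it was the only subunit of the 8 with an adjusted p under 0.05 in that step, beside 11.8% of all genes tested. When any 1 of the 4 mice compared was left out, this difference was -0.95 to -0.69 and did not pass the test (edgeR adjusted p from 0.0507 to 0.270). It was 0.49 higher at PND 28 than at PND 21, which did not pass the test (edgeR adjusted p = 0.190).

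**Figure D2:**
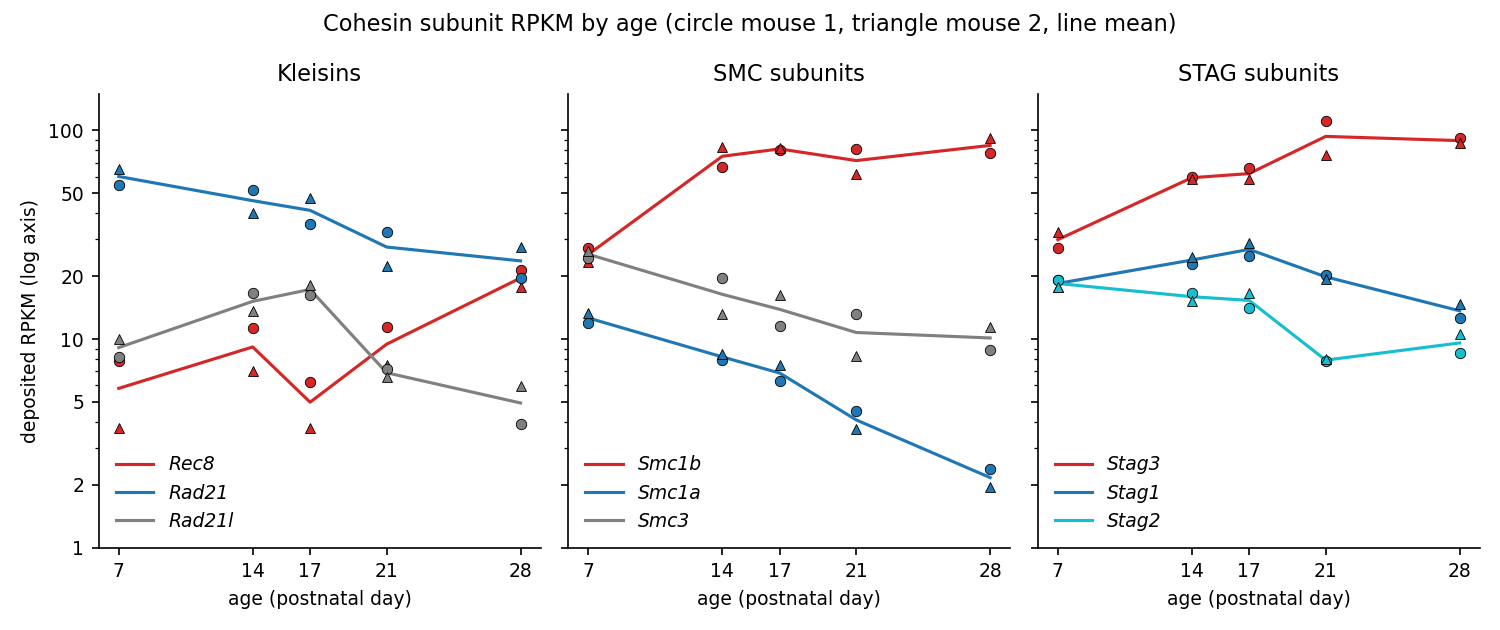
Deposited RPKM (log axis) against age in postnatal days for the kleisins, the SMC subunits and the STAG subunits, with a circle for mouse 1, a triangle for mouse 2 and a line through the means. Smc1b and Stag3 lie at 58.4 to 110 RPKM from PND 14 on, Rec8 lies below 22 RPKM at every age, and Smc1a goes from 11.98 and 13.3 RPKM at PND 7 to 2.39 and 1.95 RPKM at PND 28.

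By deposited RPKM, and so for the exon lengths it uses, the order of the 8 levels was turned over between PND 7 and PND 28. At PND 7 Rad21 led with a mean of 60.1 RPKM, followed by Stag3, Smc3 and Smc1b (29.9, 25.5 and 25.4 RPKM, of which Smc3 and Smc1b overlapped), Stag1 and Stag2 (18.5 and 18.5 RPKM, overlapping), Smc1a (12.6 RPKM) and Rec8 (5.81 RPKM). At PND 14 and 17 Smc1b led with means of 75.1 and 81.4 RPKM over Stag3 with 59.3 and 62.02 RPKM, without overlap, and Rad21 came next with 46.0 and 41.4 RPKM. This lead of Smc1b is tied to the 5733 bases of exon used for Stag3, whose longest protein-coding transcript has 4211. For Smc1b both lengths are 4038, so the order of Smc1b and Stag3 is uncertain. At PND 21 and 28 Stag3 had the highest mean, 93.5 and 89.2 RPKM, but its mice overlapped with those of Smc1b, at 71.6 and 84.6 RPKM. Rec8 was last at PND 7 and 17, and at PND 28 it had climbed to the fourth place with 19.6 RPKM, overlapping with Rad21 at 23.7 RPKM. Smc1a was last at PND 14, where it overlapped with Rec8, and at PND 21 and 28. The highest mean was 10.3 times the lowest at PND 7 and 41.1 times the lowest at PND 28.

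Within each mouse, the meiotic paralog was set against the mitotic one as a ratio of reads per kilobase, which does not depend on how libraries are scaled. Smc1b took 69.6% and 63.9% of the RPKM of Smc1b and Smc1a together at PND 7, 89.4% and 90.7% at PND 14, 92.8% and 91.6% at PND 17, 94.7% and 94.4% at PND 21, and 97.0% and 97.9% at PND 28. Stag3 took 41.7% and 47.7% of the RPKM of the 3 STAG genes at PND 7, 60.2% and 59.3% at PND 14, 62.6% and 56.3% at PND 17, 79.7% and 73.6% at PND 21, and 81.3% and 77.4% at PND 28. Rec8 took 12.5% and 5.45% of the RPKM of Rec8 and Rad21 at PND 7, 18.0% and 14.8% at PND 14, 14.9% and 7.35% at PND 17, 25.8% and 25.1% at PND 21, and 52.2% and 39.1% at PND 28. The SMC1 pair was thus mostly meiotic already at PND 7, while the pair of Rec8 and Rad21 was mostly mitotic in 9 of 10 mice. That pair leaves out Rad21l, also a meiotic kleisin, which was above Rec8 in all mice of PND 14 and 17. At PND 17 Rad21l was at 16.3 and 18.2 RPKM and Rec8 at 6.23 and 3.74 RPKM. With Rad21l added to the total only, the share of Rec8 alone was 4.76% to 11.1% at PND 7 and 34.5% to 47.7% at PND 28. The joint share of Rec8 and Rad21l was not computed.

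The ratio of Smc1b to Smc1a was 8.16-fold higher in the 8 later mice than in the 2 of PND 7, and 2.50-fold higher in the 4 mice of PND 21 and 28 than in the 4 of PND 14 and 17. The ratio of Stag3 to Stag1 was higher by 2.26-fold and 2.30-fold in these contrasts, and that of Stag3 to Stag2 by 3.92-fold and 2.68-fold. In all 6 of these contrasts the groups did not overlap. The ratio of Rec8 to Rad21 was 3.51-fold higher at PND 21 and 28 than at PND 14 and 17, again without overlap, but the PND 7 mice overlapped with the later ones (3.14-fold). On the log2 scale this last difference was 1.65, and it was 2.31 without mouse 1 and 0.99 without mouse 2 of PND 7. The two-sided exact permutation p was the smallest possible in each contrast without overlap, 0.0444 for 2 mice against 8 and 0.0286 for 4 against 4, and it was 0.0889 for Rec8 to Rad21 at PND 7. After Benjamini-Hochberg adjustment over the 8 tests these became 0.0508 and 0.0889, so no ratio passed 0.05 after adjustment. The later contrasts put mice of different ages together, and the spread within a group includes the change between its ages.

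**Figure D3:**
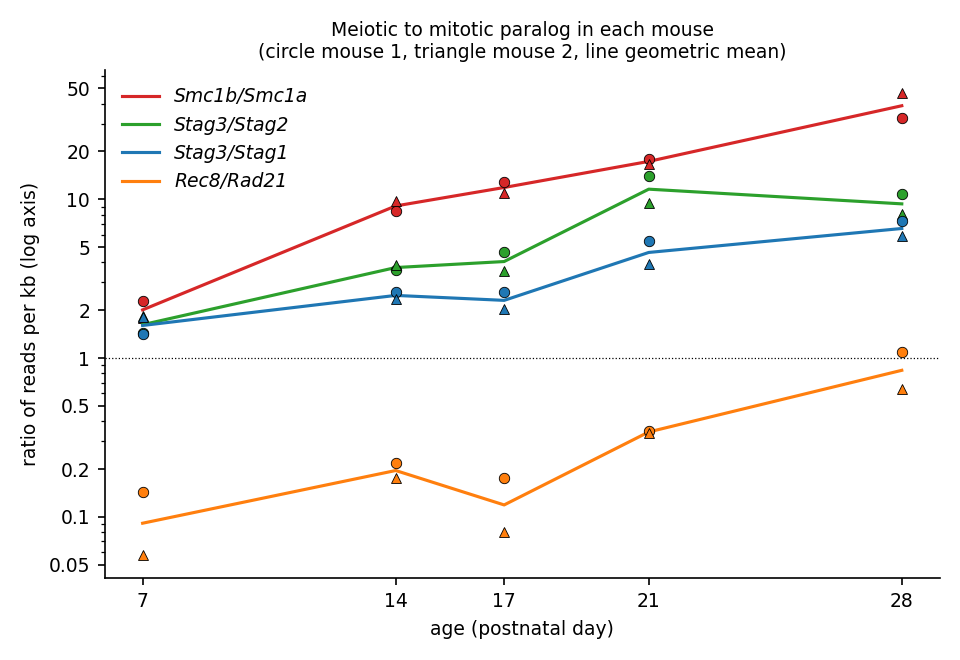
Ratio of reads per kilobase of the meiotic to the mitotic paralog (log axis) against age in postnatal days in each mouse, with a circle for mouse 1, a triangle for mouse 2 and a line through the geometric means. Smc1b to Smc1a goes from 1.78 and 2.28 at PND 7 to 32.4 and 46.5 at PND 28, and Rec8 to Rad21 exceeds 1 only in mouse 1 of PND 28 (1.09).

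The meiotic subunits also differed from each other. The ratio of Stag3 to Smc1b was 0.988 and 1.38 at PND 7, 0.704 to 0.896 at PND 14 and 17, and 0.945 to 1.36 at PND 21 and 28. The ratio of Rec8 to Smc1b was 0.289 and 0.159 at PND 7, 0.0773 and 0.0462 at PND 17, and 0.276 and 0.194 at PND 28. Rec8 therefore stood lowest against its partners at PND 17 and was back in its PND 7 range at PND 28. These ratios were not tested.

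Comparing PND 28 with PND 7 covers the whole span. Of all genes tested, 55.6% were DE, and 62.6% had an adjusted p under 0.05. Of the 3 meiotic subunits 3 rose, beside 32.2% of all genes tested, and of the other 5 subunits 3 fell, beside 23.4% of all genes tested. Rec8 rose by 2.07 ± 0.39 on the log2 scale (SE; edgeR adjusted p = 0.000989), Smc1b by 2.05 ± 0.24 (edgeR adjusted p = 2.94e-05) and Stag3 by 1.91 ± 0.23 (edgeR adjusted p = 3.58e-05). Rec8 rests on its PND 7 mice most, with 2.75 without mouse 1 and 1.62 without mouse 2 of that age, and it was called either way. Smc1a fell by 2.21 ± 0.24 (edgeR adjusted p = 2.18e-05), which was the largest change of the 8, and no PND 28 mouse of any of these 4 genes overlapped with a PND 7 mouse. Rad21 fell by 1.02 ± 0.25 (edgeR adjusted p = 0.00489) and Smc3 by 1.01 ± 0.27 (edgeR adjusted p = 0.00751), both at the edge of the 2-fold threshold. Under RLE scaling, which moved the median of all genes by 0.17 in this comparison, Rad21 and Smc3 were at -0.86 and -0.84 and were no longer called. Without mouse 2 of PND 7 they were at -0.91 and -0.98, short of 2-fold, and without mouse 1 of PND 28 neither passed the adjusted p (edgeR adjusted p = 0.0627 and 0.0762). Stag2 was at -0.62 ± 0.21 (edgeR adjusted p = 0.0244), short of 2-fold, and Stag1 at -0.12 ± 0.21 (edgeR adjusted p = 0.638), with a sign that flips under RLE scaling.

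Between PND 17 and PND 14 none of the 8 subunits was called, and neither was any of the 16860 genes by edgeR, while DESeq2 called 1 gene. An unadjusted p under 0.05 by edgeR was reached by 769 genes (4.56%), none of them a cohesin subunit. Between PND 21 and PND 17 none of the 8 was called, beside 10.3% of all genes tested (Rec8 was with mouse number as a block; 9.29% higher and 1.05% lower), and between PND 28 and PND 21 none, beside 7.66% (7.37% higher and 0.297% lower). Over the 5 ages, 7 of the 8 subunits differed at an adjusted p under 0.05, beside 57.5% of all genes tested, and 5 to 7 did when each mouse was left out in turn, with the lowest count of 5 without mouse 2 of PND 7.

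**Figure D4:**
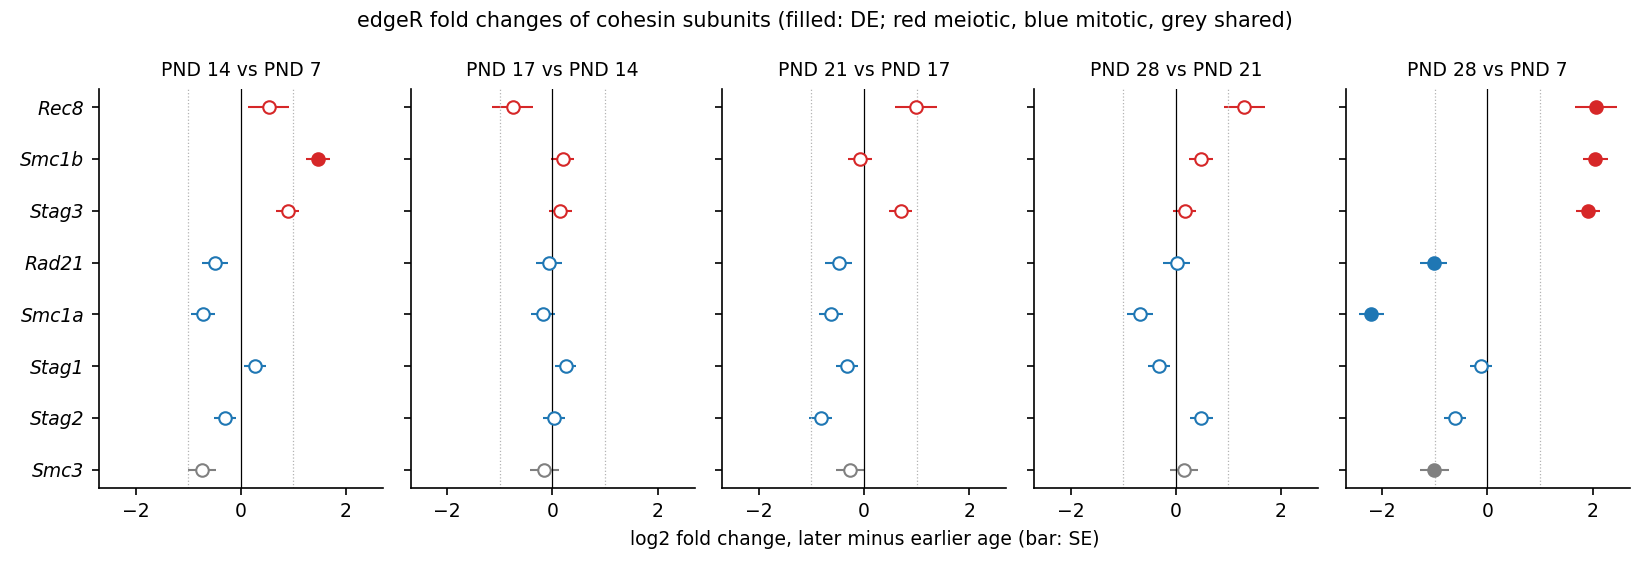
edgeR log2 fold change of the later against the earlier age, with its SE as a bar, for the 8 subunits in 5 comparisons of ages, where filled points are DE and dotted lines mark 2-fold. Smc1b in PND 14 vs PND 7 (1.46) is the only filled point among neighbouring ages, and 6 subunits are filled in PND 28 vs PND 7.

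Both X-linked subunits, Smc1a and Stag2, were lower at PND 28 than at PND 7. The sex chromosomes are known to be silenced in pachytene spermatocytes. Of the 745 X-linked genes tested, 40.7% fell over this span beside 23.4% of all genes tested, and their median log2 difference was -0.90 beside 0.10 for all genes. Between PND 17 and PND 21 the X-linked median was -0.47, beside -0.63 for Smc1a and -0.83 for Stag2. Smc1a at -2.21 lay below the X-linked median over the span and Stag2 at -0.62 above it. The autosomal mitotic subunits Rad21 and Stag1 were at -1.02 and -0.12, between which Stag2 lay, and the part of X-linkage was not tested.

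Genes that act on cohesin were taken as lists. Of the 7 genes of loading and release, 1 rose and 3 fell over the span, beside 32.2% and 23.4% of all genes tested (median log2 difference -0.52). Nipbl, which loads cohesin onto DNA, rose by 2.54 ± 0.24 on the log2 scale (SE; edgeR adjusted p = 7.34e-06), and it was the only one called between PND 17 and PND 21 (1.06, edgeR adjusted p = 0.0150), though with library totals for scaling it was at 0.97 there. It went from 20.1 and 19.7 RPKM in the PND 7 mice to 84.8 and 100.04 RPKM in those of PND 28, without overlap, whereas its loading partner Mau2, which was not called, was at 19.2 and 21.0 RPKM and at 22.5 and 17.8 RPKM. Pds5b, which helps to hold or release the ring, fell by 1.31 ± 0.25 (edgeR adjusted p = 0.000919). Ctcf, which stops cohesin at its binding sites, fell by 1.01 ± 0.27 (edgeR adjusted p = 0.00751) and was at -0.85 under RLE scaling. Its germ cell paralog Ctcfl had 54 and 33 reads at PND 7 and 6 and 1 at PND 28 and was called lower (edgeR adjusted p = 0.00486), but it overlaps a gene on the other strand and strand use in the counting is not stated. Wapl, which opens the ring, was at 0.81 and Pds5a at -0.52, both short of 2-fold.

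Of the 4 genes of acetylation, Cdca5, which codes for sororin, rose by 1.45 ± 0.45 (edgeR adjusted p = 0.0153) over the span and Esco2, which acetylates Smc3 in replicating cells, fell by 1.03 ± 0.25 (edgeR adjusted p = 0.00372), beside the same 32.2% and 23.4% of all genes. Esco1 was not called and Hdac8 was below 1 RPKM in all mice. Cdca5 was at 10.2 and 2.75 RPKM in the PND 7 mice and 14.2 and 14.0 at PND 28, so the PND 7 mice differed from each other by more than mouse 1 did from the later age. Esco2 was at 19.4 and 24.6 RPKM and went to 7.36 and 9.55 RPKM, and under RLE scaling its difference was -0.87. The median of the list over the span was -0.27.

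Of the 8 genes of protection and cleavage, 4 were higher and 1 lower between PND 7 and PND 14, beside 13.5% and 5.43% of all genes tested (median 0.79), with the same counts without mouse 1 of PND 14. Over the span 6 were higher and 2 lower, beside 32.2% and 23.4% (median 1.67, beside 0.10 for all genes). Meikin, a meiosis-specific kinetochore protein that protects Rec8 at centromeres, had 0 counts in both PND 7 mice and 115 and 185 at PND 14. With a floor of 3 counts over both PND 7 mice it was at least 104-fold higher at PND 14 and at least 190-fold higher at PND 28, and the medians above are unchanged with it at this bound. Sgo2a, the shugoshin that shields Rec8 from separase in the first meiotic division, was 2.46-fold higher at PND 14 (edgeR adjusted p = 0.0186) and 3.68-fold higher at PND 28 than at PND 7 (edgeR adjusted p = 0.000630), with an overlapping gene on the other strand. Without mouse 1 of PND 14, Sgo2a was at 1.63 in the first step, Pttg1 at 1.33, Bub1 at 1.48 and Aurkb at -1.37 on the log2 scale, each still called. Sgo1, which protects mitotic cohesin, was 2.31-fold lower at PND 28 (edgeR adjusted p = 0.0254). Meikin and Sgo2a were thus called in the same step as Smc1b, in which Rec8 was not called, and the difference between these genes was not tested.

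Espl1, the separase that cuts Rec8 and Rad21, was 2.35-fold higher at PND 21 than at PND 17 (edgeR adjusted p = 0.00848). Plk1, a kinase that phosphorylates cohesin, was 3.02-fold higher in the same step (edgeR adjusted p = 0.0153) and at 21.9 and 17.6 RPKM at PND 28 against 4.29 and 3.19 at PND 7. Pttg1, which codes for securin, the inhibitor of separase, rose 4.59-fold over the span (edgeR adjusted p = 2.47e-05), and it was 2.33-fold higher at PND 14 than at PND 7 (edgeR adjusted p = 0.00525). Bub1, the kinase that places shugoshin at centromeres, rose by 1.35 between PND 7 and PND 14 (edgeR adjusted p = 0.00138) and stayed at 38.0 to 54.3 RPKM from then on. Aurkb fell by 1.04 over the span (edgeR adjusted p = 0.0182), and was at -0.88 under RLE scaling.

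**Figure D5:**
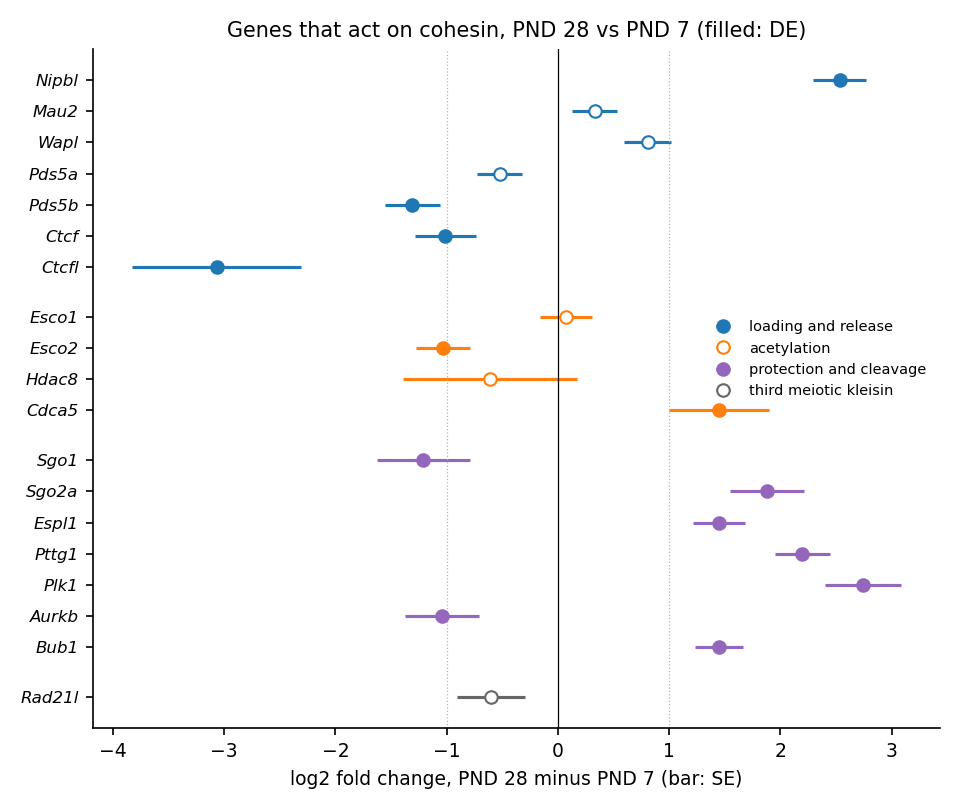
edgeR log2 fold change of PND 28 against PND 7, with its SE as a bar, for genes of cohesin loading and release, acetylation, protection and cleavage, and for the kleisin Rad21l. Filled points are DE and dotted lines mark 2-fold, and Meikin is left out because it had 0 counts at PND 7. Nipbl (2.54) and Plk1 (2.74) lie farthest to the right, and Pds5b, Ctcf, Ctcfl, Esco2, Sgo1 and Aurkb are the filled points to the left of 0.

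Among 11 other genes of SMC proteins and their partners, which cover condensin, Smc5, Smc6 and Smchd1, 3 rose and 2 fell over the span, beside 32.2% and 23.4% of all genes tested (median -0.02). Smc4, a condensin subunit, rose by 2.19 ± 0.26 (edgeR adjusted p = 4.25e-05) while its condensin partner Smc2 fell by 1.02 ± 0.35 (edgeR adjusted p = 0.0241), and both were called in these directions already at PND 14 (1.44 and -1.18). Without mouse 1 of PND 14 Smc4 was at 1.64 and Smc2 at -1.08, of which Smc2 no longer passed the test (edgeR adjusted p = 0.115). Under RLE scaling Smc2 was at -0.86 over the span and was not called. Smc5 rose 3.14-fold and Ncapg 2.06-fold, and Smchd1 was 2.01-fold lower. Ncapg overlaps a gene on the other strand and was at 0.72 on the log2 scale with library totals, and Smchd1 was at -0.84 under RLE scaling. Of the 9 genes of the chromosome axis and synaptonemal complex, 8 rose between PND 7 and PND 14 (median 2.26; 8 also without mouse 1 of PND 14), beside 13.5% of all genes tested. Hormad1 rose 11.8-fold and Sycp1 5.18-fold in that step, against 2.76-fold for Smc1b, 1.85-fold for Stag3 and 1.44-fold for Rec8, of which Stag3 and Rec8 were not called. The lowest of the list in that step under RLE scaling were Syce2 (0.084), Tex12 (1.40) and Syce1 (1.58) on the log2 scale, where Smc1b was at 1.46 in the main fit. Without mouse 1 of PND 14, Hormad1 was at 3.77 and Sycp1 at 2.61 on the log2 scale. The list mixes genes of the chromosome axis itself with genes of the synaptonemal complex.

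The genes whose pattern over the 10 mice was most like a meiotic subunit were found by Pearson's r of log2(CPM + 1) among the 9890 protein-coding genes whose CPM averaged 10 or more. For Smc1b they were Mpp5 (r = 0.991), 2610020H08Rik (0.987) and Exoc2 (0.987). For Stag3 they were Rimbp3, Noxo1 and 4930519G04Rik (0.994 each), and for Rec8 they were Hdgfrp2 (0.959), Brf1 (0.956) and Ppm1j (0.956). The nearest genes of Rec8 were less close to it than those of Smc1b and Stag3 were. Mice of the same age share most of their expression, so these values describe a shared course over age. Hdgfrp2, 2610020H08Rik, Noxo1 and 4930519G04Rik overlap a gene on the other strand and are uncertain for that reason. Neither Smc1b nor Stag3 was among the 3 genes nearest to the other.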

How the data were processed

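RNA of 10 whole testes was sequenced as 12 libraries of 50-base reads on the SOLiD 4. Per the study's methods, LifeScope v2.1 mapped them to mm9, and reads that had over 10 possible positions or came from repeats, transfer RNA or ribosomal RNA were filtered out. The authors deposited, per Ensembl gene, a raw count (uniquely mapped reads within exons) and an RPKM, which divides the count by exon length and by the reads of the library. Strand use in the counting is not given in the sources used here. The deposited exon tallies gave the number of exons with over 10 reads.

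The 2 barcodes of each PND 7 mouse were merged, with counts summed and RPKM averaged. Ensembl identifiers were given symbols with GENCODE M1, which held 37310 of the 37675 genes. Of 74 listed symbols 73 were found, all but the Sertoli marker Rhox5. Counts of all 10 mice were fitted together with edgeR 4.0.16 in R 4.3.3 (TMM, filterByExpr, quasi-likelihood tests), with Benjamini-Hochberg adjustment over the 16860 genes tested. DE meant an adjusted p under 0.05 and at least a 2-fold change. CPM was computed with TMM library sizes, and SE is the log2 fold change over the square root of F. Paralog ratios used count + 0.5 per kilobase of exon and a two-sided exact permutation test. For a gene with 0 counts at an age, a floor of 3 counts in the pair of mice stood in, which covers counting error only. Promoters came from RefSeq (GRCm38.p6).

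Alternatives were scaling by RLE or by library totals, no filter or one of CPM of at least 1 in at least 4 mice, DESeq2 1.42.0, limma 3.58.1 on log2(RPKM + 1) with adjusted p or with the study's criteria (p of at most 0.01, 2-fold, 10 RPKM) and on log2(RPKM + 0.1), mouse number as a block, fits restricted to a comparison's own 4 mice, separate barcodes, no mitochondrial genes, no fold threshold, count + 5 or RPKM in the ratios, and leaving out each mouse. Gene lists without mouse 1 of PND 14 were added after the values were seen.

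The subunits and lists were chosen with earlier results of these data known. Named genes are the subunits, the list genes that were DE or stand directly beside a subunit in function, and the 3 genes most like each meiotic subunit. The edgeR step was tested on simulated data. Tables were made in Python 3.11.15 (pandas 2.3.3, numpy 2.4.6) with scipy 1.17.1, and figures with matplotlib 3.10.9.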

Additional observations from a re-analysis of the deposited data

How the results depend on the processing

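The DE calls of Smc1b, Stag3, Rec8 and Smc1a between PND 28 and PND 7 and of Smc1b between PND 14 and PND 7 held under all alternatives run. The count of subunits called between PND 14 and PND 7 was 1, and 3 without the fold threshold. It ranged from 1 to 2 when each mouse was left out. Between PND 21 and PND 17 it was 0, and 1 without the fold threshold. Between PND 28 and PND 21 it was 0, and 1 without the filter on low counts, with DESeq2 and in a fit of those 4 mice alone, and 0 to 1 when each mouse was left out (1 without either PND 7 mouse). Over the whole span 6 were called, and 4 to 7 under the alternatives, with 1 call fewer without either PND 17 mouse or mouse 2 of PND 21. Over all genes, edgeR called 0 between PND 17 and PND 14, 357 without the filter, and 175 without mouse 2 of PND 14, and limma called 7. Between PND 28 and PND 21 it called 1292, and 1970 without the filter. Under the study's criteria 1005, 821, 856 and 3861 genes were called in the other comparisons, beside 3191, 1743, 1292 and 9378.

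Mouse numbers were not used to pair the samples. The deviations of same-numbered mice correlated between ages with r from -0.34 (PND 14 and PND 17) to 0.47 (PND 14 and PND 21), without a common sign. Whether the numbers stand for anything shared between ages is not given and was not tested. With mouse number as a replicate block, 1 subunit, Rec8, was called between PND 21 and PND 17 (1.05, edgeR adjusted p = 0.0454) and 1, again Rec8, between PND 28 and PND 21 (1.30). The block changed no other count of subunits called.

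Signs turned only in values that were not called. In PND 17 vs PND 14, Stag2 was at -0.068 with library totals, -0.058 with limma and pseudocount 1 (also under the study's criteria) and -0.062 with pseudocount 0.1. In PND 21 vs PND 17, Smc1b was at 0.030 under RLE scaling and DESeq2. In PND 28 vs PND 21 with library totals, Stag3 was at -0.064, Rad21 at -0.22 and Smc3 at -0.082. There limma with pseudocount 1 gave Stag3 -0.043, Rad21 -0.21 and Smc3 -0.056, and with pseudocount 0.1 it gave -0.043, -0.22 and -0.059. Rad21 was at -0.017 without the filter and -0.10 with 4 mice. Stag1 over the span was at 0.047 under RLE scaling and 0.040 with DESeq2. When each mouse was left out, the values in PND 17 vs PND 14 ranged from -0.0057 to 0.40 for Smc1b, -0.30 to 0.14 for Rad21, -0.43 to 0.093 for Smc3 and -0.11 to 0.15 for Stag2. In PND 21 vs PND 17 they ranged from -0.17 to 0.018 for Smc1b and -0.52 to 0.013 for Smc3. In PND 28 vs PND 21 they ranged from -0.23 to 0.22 for Rad21 and -0.075 to 0.42 for Smc3. The cause was not tested.

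With 1 mouse less no ratio test can reach 0.05, and the log2 difference kept its sign. From PND 7 to later ages it ranged from 2.81 to 3.21 for Smc1b to Smc1a, 1.00 to 1.35 for Stag3 to Stag1, 1.79 to 2.15 for Stag3 to Stag2 and 0.99 to 2.31 for Rec8 to Rad21. From PND 14 and 17 to PND 21 and 28 it ranged from 1.47 to 2.04 for Rec8 to Rad21, 1.04 to 1.53 for Smc1b to Smc1a, 1.07 to 1.36 for Stag3 to Stag1 and 1.28 to 1.54 for Stag3 to Stag2. Library totals moved the median of all genes by -0.22 between PND 28 and PND 21 and by -0.32 over the span, where 48.8% of calls were higher against 57.9%. Counts were low for Rec8, with 40 to 514 reads a mouse, for Smc1a, with 57 to 659, and for Rad21l, with 47 to 354.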
